A study of Mus musculus with 12 samples.

Results

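The nuclear genes for subunits of the respiratory chain were described in mouse bone marrow derived macrophages (BMDMs) with and without the β1 subunit of AMPK. Members were chosen by symbol alone, as Nduf followed by a, b, c, s or v and a digit, Sdha to Sdhd, Uqcr, Cox with a digit from 4 to 8, and Atp5. The count table held 82 such genes among 12960. Complex I had 37 of them, complex II had 4, complex III had 8, complex IV had 16 and complex V had 17. Ndufa4 was placed with complex IV, of which it is a subunit despite its name. Of the 82 members, 79 passed the filter on low counts and were tested, among 10822 tested genes.

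The respiratory chain sits in the inner mitochondrial membrane. Complex I (NADH dehydrogenase) and complex II (succinate dehydrogenase) pass electrons to ubiquinone, complex III hands them to cytochrome c, and complex IV reduces oxygen. Complexes I, III and IV pump protons, and complex V, the ATP synthase, makes ATP from the gradient. Complex II is encoded by the nucleus alone, whereas the others combine nuclear subunits with subunits from mitochondrial DNA, and only the nuclear ones match the rule. AMPK is a kinase that senses a low energy charge, and macrophages shift their use of this chain with their activation state.

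RNA sequencing was done on BMDMs of wild type (WT) and whole-body AMPKβ1 knockout (AMPKβ1-/-) mice, grown from marrow in medium conditioned by L929 cells as a source of M-CSF. Cells of each genotype received vehicle, which was 0.1% DMSO, or 10 µM PF-06409577 (PF), a direct activator of AMPK complexes that hold β1, for 6 h. Every group had 3 libraries, called libraries 1 to 3 of their group. Nothing in the sources used here says that the libraries came from separate mice or cultures or that both genotypes were cultured together, so p-values measure the spread between these libraries, and genotype and culture cannot be told apart.

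Library totals ran from 8935609 to 14358180 counts in genes. Prkab1, the gene for AMPKβ1, had 43.4, 44.2 and 45.3 CPM (counts scaled to a common library total) in WT with vehicle and 41.9, 37.3 and 37.7 with PF. The AMPKβ1-/- libraries held 8.39, 7.70 and 6.05 CPM with vehicle and 9.41, 9.42 and 7.90 with PF. All AMPKβ1-/- libraries thus lay below all WT libraries, at -2.57 ± 0.12 (SE) on the log2 scale with vehicle (adjusted p = 8.85e-09, edgeR's quasi-likelihood test). Counts span the whole gene, and the deleted part is not given in the sources used here. The 7 macrophage markers (Adgre1, Csf1r, Cd68, Itgam, Lyz2, Mertk and Fcgr1) were all tested and summed to between 24383 and 28492 CPM in every library. Single markers differed between genotypes at an adjusted p below 0.05 in that test. With vehicle 2 were higher (28.6%, against 29.7% of all tested genes) and 3 lower (42.9%, against 30%), from -0.72 to 0.25 on the log2 scale. With PF 2 were higher (28.6%, against 24.1%) and 2 lower (28.6%, against 22.9%), from -0.64 to 0.67. Granulocyte markers summed to less than 1 CPM in every library, with Ly6g, Elane and Camp not in the table. Lymphoid markers reached at most 2.35 CPM, dendritic markers 1.28 and erythroid markers 1.09. These sums rest on the 1 of 7 lymphoid, 3 of 4 dendritic and 1 of 4 erythroid markers that were in the table. Fibroblast markers summed to 0.923 to 1.89 CPM in WT and 2.02 to 8.66 in AMPKβ1-/- BMDMs with vehicle, and to 1.03 to 1.29 and 1.58 to 2.12 with PF. The part of these cells in the results was not tested. In bulk RNA, fewer cells that express a gene and less of its RNA per cell cannot be told apart.

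Subunit genes were abundant for their length. With levels divided by the length of 1 principal transcript (CPM per kilobase), 75 of the 79 tested members lay above the median of all tested genes in WT BMDMs with vehicle, and 37 lay in the top 10%. The median member had 74.8 ± 9.38 CPM per kilobase (SD over the 3 libraries), against 8.97 ± 0.232 for all tested genes. In the other groups it had 81.7 ± 6.77 in WT with PF, 65.5 ± 2.98 in AMPKβ1-/- with vehicle and 59.3 ± 2.44 in AMPKβ1-/- with PF. Members were also short, with a median transcript of 732 bases against 2906 for all tested genes. Their median GC content was 51.7%, against 50.4%.

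Levels differed more within a complex than between complexes. The median per kilobase in WT with vehicle was 64.4 ± 7.48 for complex I, 77.6 ± 6.16 for complex II, 76.4 ± 8.34 for complex III, 118 ± 15.2 for complex IV and 142 ± 19.9 for complex V (SD, n = 3 libraries). Complex V was above complex IV in each of the 3 libraries, whereas the order of complexes II and III changed between libraries. In complex I, levels ran from 6.91 ± 0.875 CPM per kilobase for Ndufs4, an accessory subunit of the matrix arm, to 211 ± 31.4 for Ndufa7. Complex II was the narrowest, from 53.3 ± 5.46 for Sdhc, a membrane anchor, to 161 ± 18.6 for Sdhb, its iron-sulfur subunit. Complex III spanned 22.9 ± 2.77 for Uqcrb to 231 ± 28.4 for Uqcrc1, a core protein. Complex V spanned 14 ± 4.39 for Atp5g2 to 428 ± 50.5 for Atp5b, the catalytic β subunit.

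Complex IV held the highest level of any member and the clearest isoform choice. Cox4i1, the general form of subunit 4, had 1062 ± 139 CPM per kilobase in WT with vehicle. Its lung isoform Cox4i2 missed the filter, with 0 to 2 counts in each of the 12 libraries. Cox6a1 had 311 ± 31.4 CPM per kilobase, against 1.65 ± 0.227 for the heart and muscle isoform Cox6a2. Cox7a2 had 61.5 ± 8.14 and Cox7a2l, a factor of supercomplex assembly, 270 ± 33.2, while the muscle isoform Cox7a1 had 5.41 ± 1.11. The testis isoform Cox6b2 also missed the filter, with 2 to 8 counts per library. In complex V, the genes Atp5g1, Atp5g2 and Atp5g3 encode the same mature c-ring subunit, and they had 125 ± 9.93, 14 ± 4.39 and 172 ± 26.4 CPM per kilobase. These gaps depended on the length used, since with all annotated exons as the length the levels were 15.2, 6.12 and 56.3. The third member that missed the filter was the pseudogene Ndufs5-ps, with 0 to 3 counts per library.

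Promoters were read from RefSeq (GRCm38.p6, 250 bases before to 50 after each start site) and matched 66 members. Motifs of 4 kinds of factor were searched on both strands, namely CGCATGCG for the factor NRF1, CCGGAAG for ETS factors such as GABPA, AAGATGGC for YY1 and TCAAGGTCA for the estrogen-related receptors, and no matches of different motifs overlapped. The NRF1 letters stood in 9 of the 66 members (13.6%), against 4.79% of the 8784 tested genes with a promoter and 2.07% of all 27025 genes in the promoter table. ETS letters were in 25.8%, against 22% and 9.93%, and YY1 letters in 15.2%, against 5.83% and 3.19%. The receptor letters were in 2 members, Atp5g3 and Sdhd (3.03%, against 0.342% and 0.466%). A match is a description of letters and not a shown binding site.

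The windows with NRF1 letters are shown because this motif is the best known for respiratory genes. Each is 30 bases of the gene's strand from 5′ to 3′, with the motif in capitals. The match began before the start site in 8 of the 9 genes and 31 bases after it in Uqcrc1.
Ndufa8 (complex I, chr2:36049329-36049358, minus strand): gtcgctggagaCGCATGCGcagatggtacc
Ndufa11 (complex I, chr17:56717692-56717721, plus strand): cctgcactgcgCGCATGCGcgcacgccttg
Uqcr11 (complex III, chr10:80406808-80406837, minus strand): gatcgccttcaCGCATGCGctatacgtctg
Uqcrc1 (complex III, chr9:108936668-108936697, plus strand): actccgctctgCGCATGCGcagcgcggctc
Cox6a1 (complex IV, chr5:115349101-115349130, minus strand): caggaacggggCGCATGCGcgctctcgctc
Atp5g2 (complex V, chr15:102671070-102671099, minus strand): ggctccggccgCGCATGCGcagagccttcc
Atp5j (complex V, chr16:84835105-84835134, minus strand): aggccagaataCGCATGCGtacagtgcagt
Atp5k (complex V, chr5:108434430-108434459, minus strand): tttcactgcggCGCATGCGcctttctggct
Atp5l (complex V, chr9:44920963-44920992, minus strand): aaccaataaCGCATGCGcatttcccccact

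The YY1 windows are shown because of where they lay. Of 10 matches, 8 began between 22 and 38 bases after the start site, all of them on the gene's strand. Complex I held 7 of these 8, beside Atp5j2 of complex V, and it held 31 of the 66 members with a promoter. Where matches lay in the promoters of other genes was not counted. The other member matches were Atp5j, 88 bases before the start, and Atp5pb, 3 bases before it on the other strand. The 8 downstream windows, with the motif in capitals, were as follows.
Ndufa3 (chr7:3617384-3617413, plus strand): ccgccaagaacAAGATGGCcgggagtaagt
Ndufa9 (chr6:126849097-126849126, minus strand): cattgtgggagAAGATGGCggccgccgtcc
Ndufb8 (chr19:44555393-44555422, minus strand): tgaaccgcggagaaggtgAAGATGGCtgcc
Ndufc1 (chr3:51408915-51408944, minus strand): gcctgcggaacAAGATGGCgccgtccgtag
Ndufs4 (chr13:114388045-114388074, minus strand): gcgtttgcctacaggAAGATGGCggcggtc
Ndufs6 (chr13:73328433-73328462, minus strand): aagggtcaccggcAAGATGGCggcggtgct
Ndufs7 (chr10:80249462-80249491, plus strand): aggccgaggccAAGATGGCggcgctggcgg
Atp5j2 (chr5:145191500-145191529, minus strand): accaggacttcAAGATGGCgtcactcggtg

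The comparison of genotypes with vehicle asked how loss of AMPKβ1 alone stood against subunit levels. Lower levels in AMPKβ1-/- BMDMs were found for 37 of the 79 tested members (46.8%), against 30% of all tested genes, and higher levels for 8 (10.1%), against 29.7%. A call was an adjusted p below 0.05 over all 10822 genes in edgeR's quasi-likelihood test. The median log2 fold change (AMPKβ1-/- minus WT) of the members was -0.27, against -0.03 for all tested genes. Lower calls passed 0.8 on the log2 scale in 1 member, Cox4i1 (1.27%, near the 1.76% of all tested genes). Higher calls passed it in 0 members, against 16.1% of all tested genes. With library sizes alone as the scale, the median of all genes moved to 0.18. The calls moved to 24 lower (30.4%, against 14.8% of all tested genes) and 14 higher (17.7%, against 39.7%). Libraries of the 2 genotypes did not overlap, with AMPKβ1-/- lower, for 38 members (48.1%), against 32% of all tested genes, and with AMPKβ1-/- higher for 8 (10.1%), against 30.9%.

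Cox4i1 (chr8:120668222-120674207, GRCm38) had 904, 769 and 701 CPM in WT with vehicle and 432, 429.7 and 445 in AMPKβ1-/- BMDMs with vehicle. The genotypes did not overlap, and every AMPKβ1-/- library was lower, with -0.86 ± 0.09 on the log2 scale (SE, adjusted p = 1.89e-05). Ndufs8 (chr19:3908863-3912774), an iron-sulfur subunit of complex I, had 83.6, 71.6 and 67.3 CPM in WT and 47.1, 39.98 and 49.2 in AMPKβ1-/- BMDMs. It was also lower without overlap, by -0.71 ± 0.10 (adjusted p = 9.57e-05). Uqcrc1 (chr9:108936633-108949623) had 436, 353 and 357 CPM in WT and 239.9, 221 and 219 in AMPKβ1-/- BMDMs, a log2 fold change of -0.75 ± 0.10 (adjusted p = 4.89e-05). The WT libraries of these genes spread more than the AMPKβ1-/- libraries, with library 1 the highest.

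Lower calls fell in all 5 complexes, but not in all above the 30% of all tested genes. Their shares were 52.8% in complex I, 50% in II, 25% in III, 35.7% in IV and 52.9% in V. In complex I, 19 of 36 tested members were lower, 9 of 16 in the matrix arm, where NADH is oxidised, and 10 of 19 in the membrane arm. They included Ndufv1, which holds the flavin, with -0.65 ± 0.10, and Ndufs8. In complex V, 9 of 17 were lower, among them all 5 genes of the F1 head and central stalk. Atp5d, the δ subunit of that stalk, fell by 0.69 on the log2 scale and Atp5b by 0.43. Lower calls were fewer in complex IV (5 of 14, Cox4i1, Cox6a1, Cox8a, Cox6b1 and Cox5b) and complex III (2 of 8, Uqcrc1 and Uqcr11). The share in complex IV was near that of all tested genes, and the share in complex III was below it. The medians by complex were -0.36 for complex I, -0.28 for II, -0.22 for III, -0.23 for IV and -0.36 for V, and these differences between complexes were not tested. The order changed in the fit with the GC and length trend removed, described further on, where 10 of 36, 2 of 4, 3 of 8, 3 of 14 and 7 of 17 members were lower in complexes I to V and the medians were -0.06, -0.16, -0.10, -0.07 and -0.14. In that fit 20.2% of all tested genes were lower.

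In complex II, 2 of 4 subunit genes were lower with vehicle, and differences between the subunits were not tested. Sdhb (chr4:140961203-140979193) had 204, 185 and 162 CPM in WT and 117, 121 and 132 in AMPKβ1-/- BMDMs with vehicle, with -0.58 ± 0.10 on the log2 scale (adjusted p = 0.000202). Sdhc fell by 0.38 (adjusted p = 0.00214). The other anchor, Sdhd, had a log2 fold change of -0.19 ± 0.10 and did not pass (adjusted p = 0.131). Sdha, the flavoprotein, had 247, 236 and 232 CPM in WT and 238, 227 and 222 in AMPKβ1-/- BMDMs. These ranges overlapped (-0.06 ± 0.07, adjusted p = 0.455). In the fit with the GC and length trend removed, Sdha had -0.13 ± 0.06, close to Sdhb at -0.19 ± 0.06. Sdhc had -0.44 and Sdhd -0.10 there.

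The 8 members called higher stood in complexes where most calls were lower. They were Ndufs1 and Ndufa5 of the complex I matrix arm, Uqcrb of complex III, Ndufa4, Cox7b and Cox6c of complex IV, and Atp5mpl and Atp5pb of complex V. Uqcrb (chr13:66900617-66905378), a small subunit close to the ubiquinone site, had 10.7, 12.5 and 13.6 CPM in WT and 18.7, 21.1 and 19.6 in AMPKβ1-/- BMDMs with vehicle. The groups did not overlap, and the log2 fold change was 0.69 ± 0.16 (adjusted p = 0.00163). Ndufs1, a core subunit with several iron-sulfur clusters, had 37.0, 38.9 and 33.3 CPM in WT and 43.9, 51.1 and 49.2 in AMPKβ1-/- BMDMs. Its groups were apart too, at 0.40 ± 0.10 (adjusted p = 0.00244). Ndufa4 had 24.5, 29.7 and 26.8 against 34.5, 45.5 and 42.2 CPM, with 0.59 ± 0.14 (adjusted p = 0.00172). Cox6c lay closest to the threshold, at 0.27 ± 0.11 (adjusted p = 0.0485). Without AMPKβ1-/- library 2 with vehicle 4 members were higher (5.06%, against 24.6% of all tested genes). Without WT library 1 with vehicle 5 were (6.33%, against 24.3%).

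**Figure D1:**
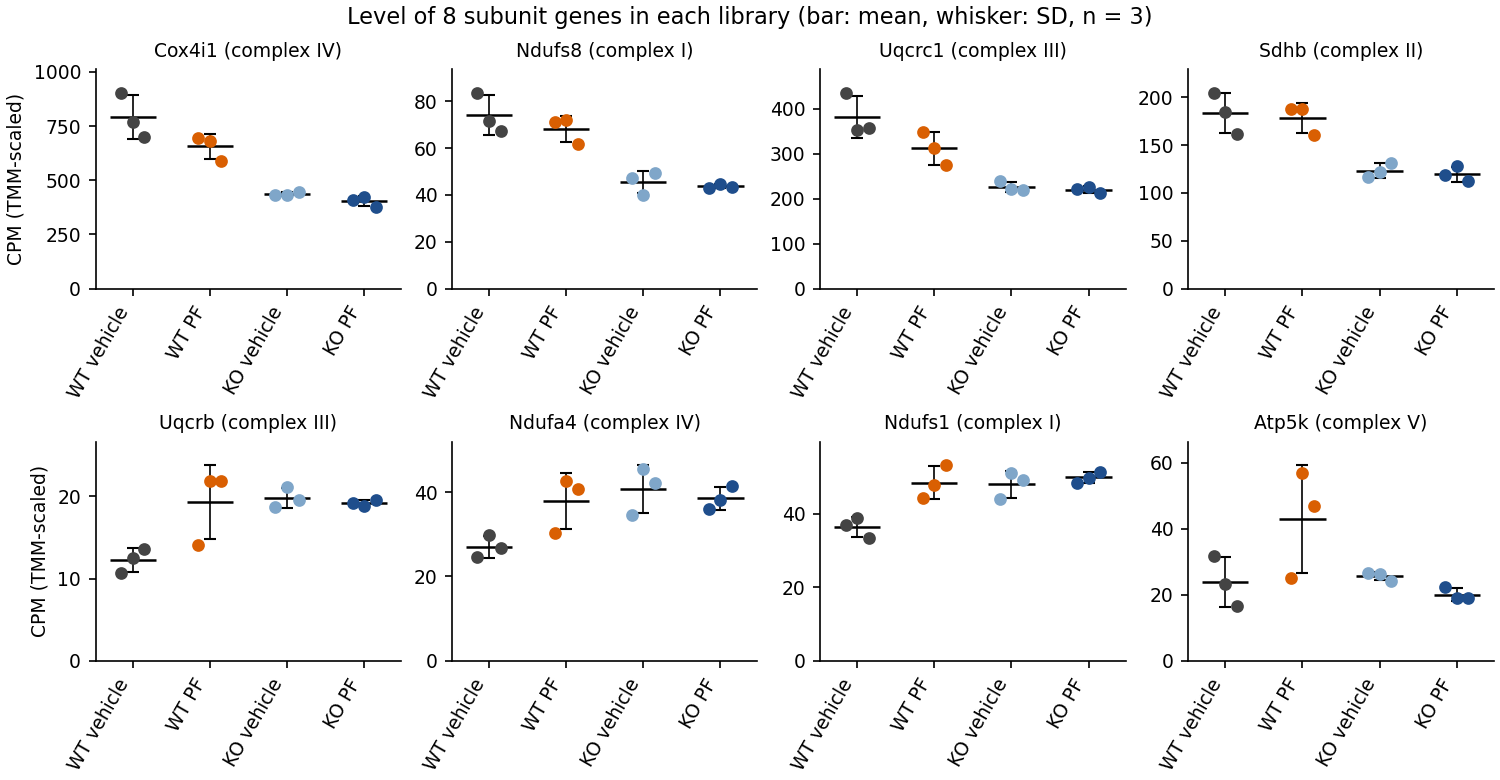
CPM (TMM-scaled, y axis from 0) of 8 subunit genes in each library of the 4 groups, with points for libraries, a bar for the mean and whiskers for the SD (n = 3). Cox4i1, Ndufs8, Uqcrc1 and Sdhb are lower in all AMPKβ1-/- than in all WT libraries with vehicle, whereas Uqcrb, Ndufa4 and Ndufs1 are higher there, and WT library 1 with PF lies apart from libraries 2 and 3 for Uqcrb, Ndufa4 and Atp5k.

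GC content moved with these differences, in members as in all genes. The slope of log2 CPM, relative to the mean of the 12 libraries, on transcript GC content over all tested genes was 0.72, 0.36 and 0.53 per 10 percentage points in WT libraries 1 to 3 with vehicle. It was 0.37, 0.17 and -0.05 in WT with PF, -0.10, -0.36 and -0.35 in AMPKβ1-/- with vehicle and -0.51, -0.33 and -0.44 in AMPKβ1-/- with PF. Every WT vehicle library thus had a positive slope and every AMPKβ1-/- library a negative one. The members called lower in AMPKβ1-/- with vehicle had a median GC content of 54.9%, those called higher 44.6%, and Pearson's r between a member's log2 fold change and its GC content was -0.68 (79 genes of the same libraries, a description). Transcripts of Uqcrb, Cox7b, Atp5mpl and Ndufa4 had 42.2%, 42.0%, 42.9% and 44.1% GC.

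A fit with the trend in GC content and transcript length removed from each library was therefore read beside each result. With vehicle it called 25 members lower (31.6%, against 20.2% of all tested genes) and 8 higher (10.1%, against 14.2%), with a median of -0.09. Of the 37 lower calls 19 remained, and of the 8 higher calls 3 remained, namely Ndufa5, Cox6c and Atp5pb. Uqcrb, Ndufs1, Cox7b and Atp5mpl changed sign in that fit (-0.09, -0.09, -0.14 and -0.14, none called), and Cox8a did so among the lower calls (0.12). Cox4i1 stayed lower at -0.39 ± 0.06 (adjusted p = 5.16e-05), Ndufs8 at -0.24 ± 0.07, Uqcrc1 at -0.31 ± 0.06 and Sdhb at -0.19 ± 0.06 (adjusted p = 0.0291).

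**Figure D2:**
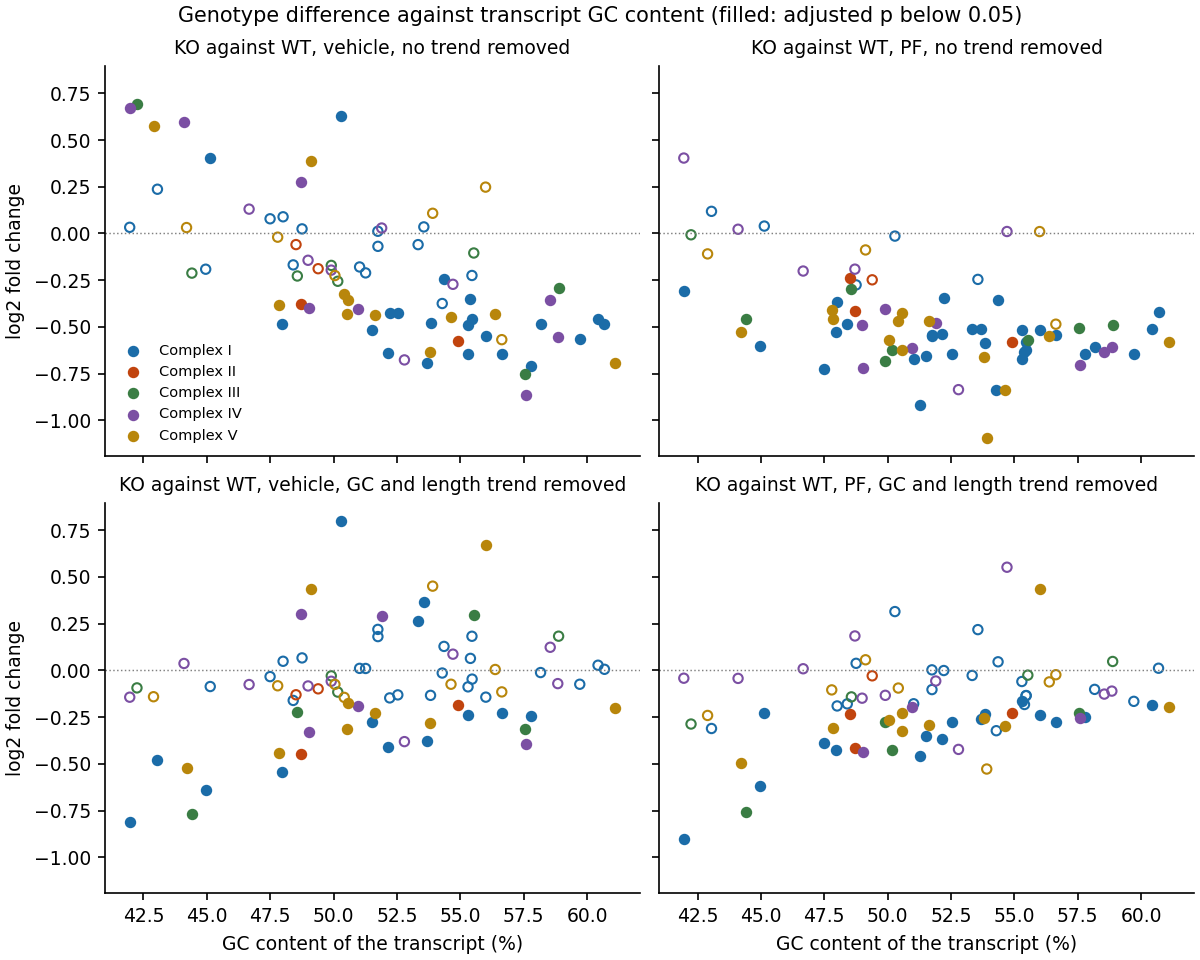
log2 fold change of each tested subunit gene, AMPKβ1-/- minus WT, against GC content of its transcript in percent, with vehicle (left) and PF (right), before (top) and after (bottom) removal of the trend in GC content and length. Colours mark complexes I to V and filled points an adjusted p below 0.05. In the top left panel fold changes fall with GC content (r = -0.68), and 25 lower and 8 higher calls stand in the panel beneath it.

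With PF in both genotypes, 62 of 79 members (78.5%) were lower in AMPKβ1-/- than in WT BMDMs, against 22.9% of all tested genes, and 0 were higher, against 24.1%. At an unadjusted p below 0.05, 0 members were higher, against 27.3%, and DESeq2 and limma-voom each called 0 higher. The median log2 fold change was -0.52, and 65 members (82.3%) had AMPKβ1-/- libraries below all WT libraries, against 30% of all tested genes, with 0 above them, against 29.9%. Lower calls made up 31 of 36 in complex I, 3 of 4 in complex II, 7 of 8 in complex III, 8 of 14 in complex IV and 13 of 17 in complex V. The medians were -0.54, -0.33, -0.50, -0.49 and -0.49 in that order.

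All 37 members that were lower with vehicle were lower with PF as well, which was 100% of the vehicle list and 59.7% of the PF list. The same overlap over all tested genes was not counted. These comparisons share no library, but they come from 1 model, and GC slopes differed between genotypes in both. With the GC and length trend removed, 18 of the 37 were lower in both. Ndufb8, Ndufs4 and Uqcrfs1 were lower with vehicle in that fit and not called with PF. The other 25 passed the test with PF alone, but a gene that passed in 1 comparison and not in the other is not shown to differ between them. All 8 members that were higher in AMPKβ1-/- with vehicle had no call with PF. Uqcrb, for instance, had 14.1, 21.9 and 21.9 CPM in WT with PF and 19.2, 18.8 and 19.6 in AMPKβ1-/- BMDMs with PF (-0.01 ± 0.15). The level in AMPKβ1-/- BMDMs lay inside the WT range there.

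The smallest p-values belonged to Cox4i1 (697, 683 and 588 CPM in WT with PF, 406, 424 and 377 in AMPKβ1-/- with PF, -0.70 ± 0.09, adjusted p = 4.5e-05) and Cox5b, a zinc-binding subunit of complex IV. Cox5b had 108, 135 and 115 CPM in WT and 73.4, 75.1 and 68.8 in AMPKβ1-/- BMDMs, with -0.72 ± 0.10 (adjusted p = 6.58e-05). Both genes had no overlap between genotypes. Next came Cox6a1, Atp5h and Atp5o of the peripheral stalk, Ndufa7, Atp5g1, Ndufb7, Ndufb9 and Ndufv3, with log2 fold changes between -0.67 and -0.52. Without the trend in GC content and length, Cox6a1 (-0.11), Atp5g1 (-0.06), Ndufb7 (-0.17) and Ndufb9 (-0.18) were no longer called. Sdhb was as far apart with PF as with vehicle, at -0.58 ± 0.10, and Sdhc fell by 0.42. Sdha passed with PF (259, 261 and 259 CPM in WT against 229, 222 and 209.8, -0.24 ± 0.07, adjusted p = 0.00853), and Sdhd did not (-0.25 ± 0.10, adjusted p = 0.0604).

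A lower call together with a log2 fold change past -0.8 was found for 4 members (5.06%, against 2.06% of all tested genes), all encoding small subunits. Cox6a2 had -0.84 but did not pass (adjusted p = 0.0928). Atp5k (chr5:108433244-108434448), subunit e of the ATP synthase membrane part, had 25.0, 57.0 and 46.8 CPM in WT with PF and 22.2, 19 and 18.97 in AMPKβ1-/- with PF. The groups were apart, at -1.10 ± 0.26 (adjusted p = 0.00432). Ndufa3 had 44.5, 71.9 and 66.4 against 34.6, 33.8 and 28.2 CPM (-0.92 ± 0.16), and Atp5e and Ndufb2 both had -0.84. In the fit without the trend in GC content and length, 35 members were lower with PF (44.3%, against 22% of all tested genes), 34 of them among the 62, and 1 was higher, Atp5j, with a median of -0.19. Of the 4 genes above, Atp5k (-0.53, adjusted p = 0.101) and Ndufb2 (-0.32, adjusted p = 0.0508) lost their call there, while Ndufa3 (-0.46) and Atp5e (-0.30) kept it.

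Across both genotype comparisons and both fits, 18 members were lower each time. They included Ndufs8, Ndufv1, Ndufa9, Ndufa10 and Ndufa12 of complex I, Sdhb and Sdhc of complex II, Uqcrc1 of complex III, Cox4i1, Cox5b and Cox6b1 of complex IV, and Atp5a1, Atp5b, Atp5c1, Atp5d, Atp5h and Atp5o of complex V. This listing is a description drawn after the calls were known. Atp5b (chr10:128083273-128090391) had 920.1, 811 and 727 CPM in WT with vehicle, 838, 795 and 734 in WT with PF, 591, 598 and 629 in AMPKβ1-/- with vehicle and 581, 587 and 541 in AMPKβ1-/- with PF. Its WT libraries all lay above its AMPKβ1-/- libraries, whatever the treatment. NRF1 letters stood in a promoter of 7 of the 53 matched members lower with PF (13.2%) and of 2 of the 12 with no call (16.7%), and YY1 letters in 13.2% and 25% of these genes.

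**Figure D3:**
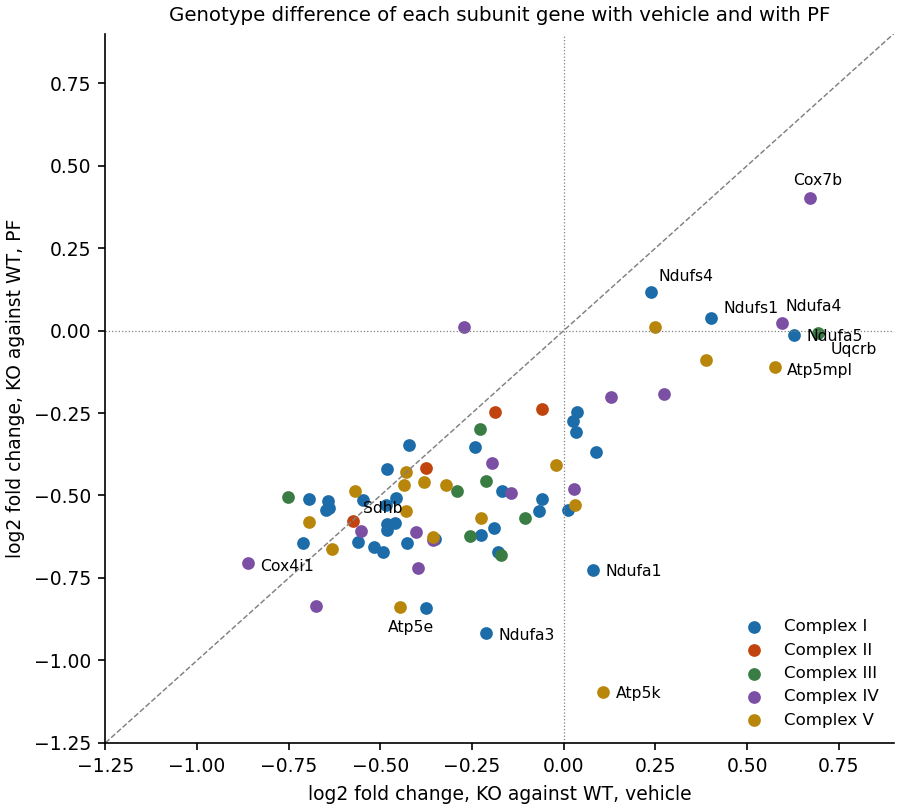
log2 fold change (AMPKβ1-/- minus WT) of each tested subunit gene with vehicle (x axis) and with PF (y axis), coloured by complex, with dotted lines at 0 and a dashed line of equality. Most genes lie in the lower left part (37 lower in both comparisons), Atp5k, Ndufa3 and Ndufa1 lie low on the y axis alone, and Uqcrb, Ndufa4, Ndufa5 and Ndufs1 lie to the right near 0 on the y axis.

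The share of a library's counts that fell on the 82 members showed the same order, with the library total alone as the scale. It was 0.859%, 0.806% and 0.713% in WT with vehicle, 0.818%, 0.885% and 0.822% in WT with PF, 0.680%, 0.700% and 0.708% in AMPKβ1-/- with vehicle and 0.657%, 0.683% and 0.642% in AMPKβ1-/- with PF. All 6 AMPKβ1-/- libraries were below all 6 WT libraries, with WT library 3 with vehicle next to them. Complex I gave 0.192% to 0.229% in WT and 0.182% to 0.184% in AMPKβ1-/- BMDMs with vehicle. Complex V gave 0.239% to 0.291% and 0.232% to 0.245%, which overlapped.

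**Figure D4:**
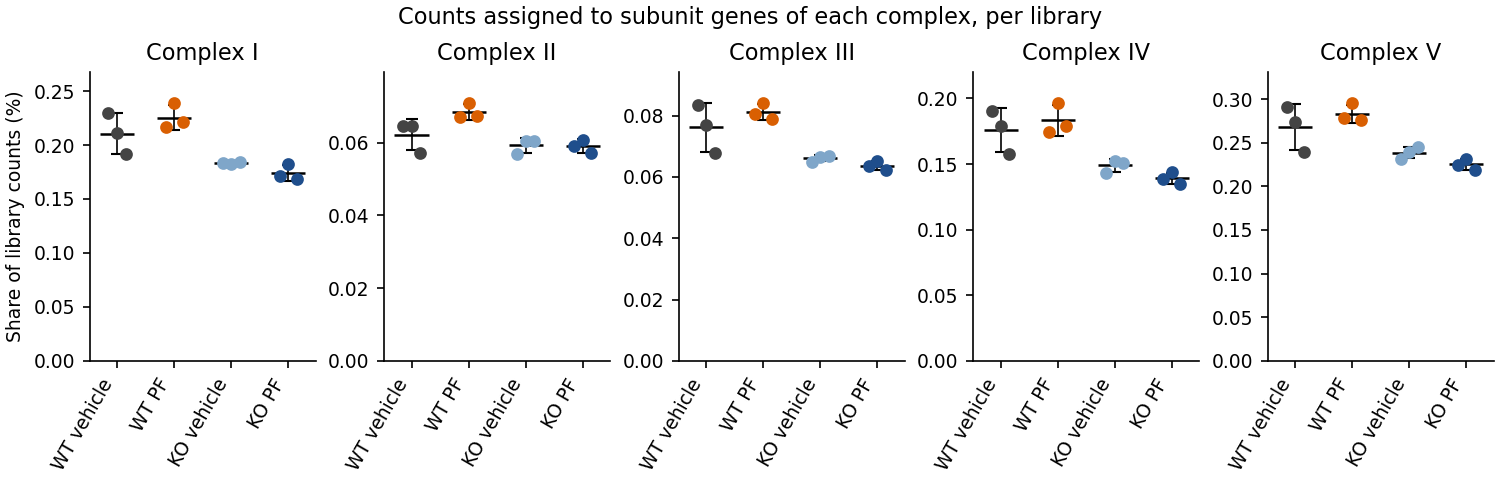
Share of each library's counts, in percent with y axes from 0, that fell on subunit genes of complexes I to V, with points for libraries, a bar for the mean and whiskers for the SD (n = 3 per group). In each complex the AMPKβ1-/- libraries with PF lie below the WT libraries with PF, as for all members together (0.642% to 0.683% against 0.818% to 0.885%).

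In WT BMDMs, PF was compared with vehicle for the response of the chain to AMPK activation. Levels of 9 members rose (11.4%), against 6.99% of all tested genes, and 0 fell, against 8.95%. At an unadjusted p below 0.05, 26 members were higher (32.9%, against 17.2% of all tested genes) and 4 lower (5.06%, against 18.1%). DESeq2 called 14 higher and 1 lower, whereas limma-voom called 6 and 0. Libraries did not overlap, with PF higher, for 16 members (20.3%), against 14.2% of all tested genes, and with PF lower for 2 (2.53%), against 18.1%. The median log2 fold change was 0.13, against 0.00 for all tested genes, with 0.09 for complex I, 0.07 for complex II, 0.22 for complex III, 0.13 for complex IV and 0.15 for complex V.

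The 9 genes came from all complexes but complex II. They were Ndufa1, Ndufb5 and Ndufs1 of complex I, Uqcrb and Uqcr10 of complex III, Ndufa4 and Cox6c of complex IV, and Atp5k and Atp5j of complex V. Ndufa1 (chrX:37187588-37191163), an accessory subunit of the membrane arm, had 19.2, 23.3 and 17.2 CPM with vehicle and 24.6, 35.5 and 35.8 with PF. The groups did not overlap, although library 1 with PF lay close to library 2 with vehicle, and the log2 fold change was 0.68 ± 0.15 (adjusted p = 0.0112). Uqcr10, a small accessory subunit of complex III, had 46.6, 46.5 and 37.7 CPM with vehicle and 50.9, 65.7 and 56.9 with PF. It rose by 0.41 ± 0.11 on the log2 scale (adjusted p = 0.0212) without overlap.

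Uqcrb and Ndufs1, which were also higher in AMPKβ1-/- with vehicle, rose by 0.65 ± 0.16 (adjusted p = 0.0165) and 0.42 ± 0.10 (adjusted p = 0.0141). That comparison shares its WT vehicle libraries with this one, so the 2 results are not independent. Atp5k had the largest change of the 9 and was 1 member past 0.8 (1.27%, against 1.16% of all tested genes), from 31.9, 23.3 and 16.6 CPM to 25.0, 57.0 and 46.8 (0.85 ± 0.26, adjusted p = 0.0443), and its groups overlapped because library 1 with PF lay inside the vehicle range. Atp5j, coupling factor 6 of the peripheral stalk, was nearest to the threshold at 0.32 ± 0.11 (adjusted p = 0.0496). The 5 small membrane subunits of complex V all had positive values, 0.18 to 0.85, and 1 of them (Atp5k) passed. This shared direction was lost with the GC and length trend removed, where their median went from 0.44 to -0.06 and 0 were called. Atp5l (-0.06), Atp5md (-0.13) and Atp5mpl (-0.17) were negative there, while Atp5j2 (0.06) and Atp5k (0.77) stayed positive.

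The calls with PF in WT depended on single libraries, in members as in all tested genes. Without WT library 3 with PF 0 members were higher, against 1.18% of all tested genes. Without library 2 with PF there was 1 (1.27%, against 1.70%), and without WT library 3 with vehicle there was 1 (1.27%, against 2.38%). Without library 1 with PF there were 21 (26.6%, against 14.9%). A fit to the 6 WT libraries alone called 1 (1.27%, against 2.01%). Transcripts with low GC content again went with the higher values (r = -0.58 over 79 members), and 2 members were higher once the GC and length trend was removed, Uqcr10 and Ndufs5 (2.53%, against 3.13% of all tested genes), with a median of 0.04, while Ndufa4 turned to -0.04.

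In AMPKβ1-/- BMDMs, 0 members were called with PF against vehicle in either direction by edgeR, DESeq2 or limma-voom, where 0.0554% of all tested genes were higher and 0% lower. At an unadjusted p below 0.05, 0 members were higher, against 4.29% of all tested genes, and 2 lower (2.53%, against 0.693%), Ndufa2 (-0.35, adjusted p = 0.417) and Cox5a (-0.22, adjusted p = 0.964). Small differences mostly pointed downwards, with 67 of 79 members (84.8%) below 0, against 51.3% of all tested genes, and a median of -0.10. The mean slope on GC content over all tested genes also moved, from -0.27 with vehicle to -0.43 with PF. With the GC and length trend removed the median was -0.05, against -0.01 for all tested genes, and 0 members were called. Libraries did not overlap, with PF lower, for 30 members (38%), against 6.28% of all tested genes, and with PF higher for 1 (1.27%), against 8.21%. Ndufa2, an accessory subunit of the matrix arm, had 58.6, 53.1 and 47.8 CPM with vehicle and 42.3, 41.9 and 41.1 with PF, and all PF libraries were lower.

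Whether the responses of the genotypes to PF differed was tested by the interaction, as the WT response minus the AMPKβ1-/- response. It called 0 members with edgeR (0.176% of all tested genes higher and 0.24% lower), 1 higher with DESeq2 and 0 with limma-voom. At an unadjusted p below 0.05, 27 members (34.2%) had a larger value in WT, against 6.35% of all tested genes, and 0 a smaller one, against 7.97%. The median was 0.22. Ndufa1 had the smallest p, with a difference of 0.80 (95% interval 0.38 to 1.23, adjusted p = 0.113), and Atp5k the largest difference, 1.2 (0.48 to 1.93, adjusted p = 0.177). A difference in response was therefore not called for any member at this depth and number of libraries by edgeR. Without WT library 1 with PF, 6 members were called higher (7.59%, against 1.22% of all tested genes) and 0 lower (against 1.38%). In the fit without the GC and length trend the median was 0.08 and 0 members were called. There 0.739% of all tested genes were higher and 0.869% lower.

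**Figure D5:**
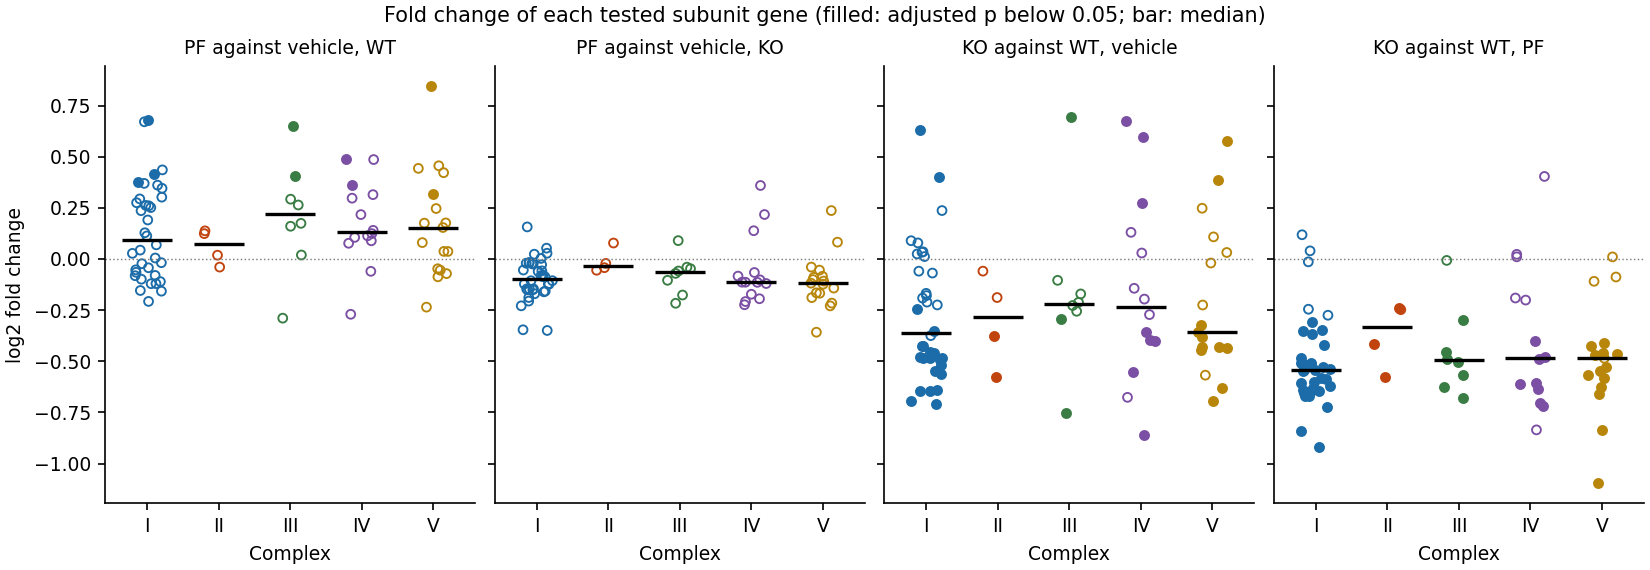
log2 fold change of each tested subunit gene by complex in the 4 comparisons named above the panels, with filled points for an adjusted p below 0.05 and a black bar for the median of the complex. Filled points are 9 with PF in WT, 0 with PF in AMPKβ1-/-, 45 between genotypes with vehicle (37 lower and 8 higher) and 62 between genotypes with PF, all lower.

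Other genes of the pathway were taken from lists fixed with earlier results of these data known. Among 15 tested assembly factors of complex I, 5 were lower (33.3%, against 30% of all tested genes) and 1 higher (6.67%, against 29.7%) in AMPKβ1-/- with vehicle. With PF 4 were lower (26.7%, against 22.9%) and 1 higher (6.67%, against 24.1%). The shares of lower genes lay near those of all genes. The higher one was Tmem126b, a factor of the membrane arm, in both (0.92 and 0.68). Among 35 assembly factors of complexes II to V, 11 were lower (31.4%, near the 30% of all tested genes) and 6 higher (17.1%, against 29.7%) with vehicle. With PF 13 were lower (37.1%, against 22.9%) and 0 higher (against 24.1%). With the trend removed 3 of the 35 were lower and 3 higher with vehicle, where 20.2% of all tested genes were lower and 14.2% higher. With PF 8 of the 35 were lower and 1 higher, where 22% of all tested genes were lower and 16.7% higher. The share of lower genes was then below that of all genes with vehicle and near it with PF. Sco2, a copper chaperone of complex IV, fell by 0.62 with vehicle and 0.61 with PF, and Bcs1l, which inserts an iron-sulfur protein into complex III, fell by 0.63 and 0.64. PF in WT raised 5 of the 35 (14.3%, against 6.99% of all tested genes), Cox20, Tmem70, Cox16, Cmc1 and Sdhaf2, by 0.49 to 0.71. With the trend removed, 1 of the 35 was higher, where 3.13% of all tested genes were.

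Electron carriers and ubiquinone synthesis genes gave 9 lower (45%, against 30% of all tested genes) and 4 higher (20%, against 29.7%) of 20 with vehicle. With PF 10 were lower (50%, against 22.9%) and 0 higher (against 24.1%). With the trend removed, 6 of the 20 were lower and 4 higher with vehicle, where 20.2% and 14.2% of all tested genes were. With PF 6 were lower and 0 higher there, where 22% and 16.7% of all tested genes were. Cyc1, cytochrome c1 of complex III, fell by 0.47 and 0.39, while Cycs, cytochrome c itself, was higher with vehicle (0.47, adjusted p = 0.0204). The 2 subunits of the electron transfer flavoprotein went opposite ways with vehicle, with Etfa at 0.82 and Etfb at -0.76. Coq8a, Coq8b and Coq9, which act in ubiquinone synthesis, fell by 0.83, 0.68 and 0.60 with vehicle. PF in WT raised 4 genes of the list (20%, against 6.99% of all tested genes), among them Coq10b (0.98, adjusted p = 0.00719) and Cycs (0.53). It lowered Coq8b (-0.37), which was 5% of the list against 8.95%. With the trend removed, 2 of the list were higher with PF in WT and 0 lower.

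The last lists held genes for the expression of mitochondrial DNA and known regulators of respiratory genes. Of 13 expression genes, 6 were higher (46.2%, against 29.7% of all tested genes) and 3 lower (23.1%, against 30%) in AMPKβ1-/- with vehicle. With PF 3 were higher (23.1%, against 24.1%) and 0 lower (against 22.9%). Tfam, which packages mitochondrial DNA, had 0.78 with vehicle, and the highest value was that of Mterf3 (1.51 and 1.02). Of 10 tested regulators, 6 were higher (60%, against 29.7%) and 1 lower (10%, against 30%) with vehicle. With PF 5 were higher (50%, against 24.1%) and 1 lower (10%, against 22.9%). Gabpa, an ETS factor, was higher by 1.34 with vehicle and 1.56 with PF on the log2 scale, Yy1 by 0.63 in both and Creb1 by 1.23 and 1.33, whereas Esrra, an estrogen-related receptor, fell by 0.39 and 0.24. In the fit without the GC and length trend, 1 regulator was higher and 1 lower with vehicle, with a median of 0.04, and 1 expression gene was higher and 1 lower. There 14.2% of all tested genes were higher and 20.2% lower. With PF that fit called 2 regulators higher and 1 lower, and 3 expression genes higher and 1 lower. The shares of all tested genes were 16.7% and 22%.

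Some members share sequence that counting could split. At 95% identity over at least 50% of the transcript, 14 of 81 members looked up had a near copy in the annotation, and Atp5l had 9 such copies. In the table itself such a pair was Ndufb4 and Ndufb4c, a processed copy of it, so their separate values are uncertain. Ndufb4 was lower in AMPKβ1-/- with vehicle (-0.42) and PF (-0.35), and Ndufb4c with PF (-0.67).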

How the data were processed

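RNA libraries came from a directional kit. The authors used MultiQC for read quality, Trim Galore for trimming and Salmon for quantification. The deposited values behave as Salmon's estimated counts, summed per gene and rounded to whole numbers, without normalization. The build, annotation, versions and any filter are not given in the sources used here. Each column's name gave its genotype and treatment, and its number named the library within the group.

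Counts were tested in R 4.3.3 with edgeR 4.0.16 (robust quasi-likelihood test, TMM scaling, filterByExpr by group, all 12 libraries in 1 model with a mean for each of the 4 groups), with Benjamini-Hochberg adjustment over 10822 genes. DESeq2 1.42.0 and limma 3.58.1 were alternatives. SE were derived from the F statistic and are approximate with normal 95% intervals. For a gene at 0, the limit was 3 counts (0.196 to 0.321 CPM by library), a bound on counting error alone. Replicate libraries were checked and none were identical.

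GC content, length and coordinates came from GENCODE M21 (GRCm38) with 12703 genes matched by symbol and 167 by an older symbol, and near copies from BLAST 2.17.0. The trend was a natural spline (5 df each) in GC content and log2 length per library. The fit was tested on simulated data. Alternatives were other scalings, filters and tests, the trend removed, a fold threshold, a replicate block, 6-library fits and leaving out each library.

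Members, complexes and gene lists were chosen with earlier results of these data known. Named genes were, per comparison, the up to 10 lower and 10 higher calls with the smallest p, Sdha to Sdhd, each complex's highest and lowest member per kilobase, isoform pairs, members that missed the filter, calls against the rest of their complex, and Prkab1. Other members named fell outside this rule and were chosen after their values were seen. Values of 1 member that the rule names are not reported here.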

Additional observations from a re-analysis of the deposited data

How the results depend on the processing

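The median of all members kept its sign in each of the 5 comparisons under every alternative run, while its size moved, from -0.40 to -0.0618 between genotypes with vehicle and from -0.56 to -0.19 with PF. PF in AMPKβ1-/- BMDMs gave 0 calls in both directions under every alternative.

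Scaling by library size alone gave 17 higher members for PF in WT (21.5%, against 9.66% of all tested genes). For the genotypes with vehicle it gave 14 higher (17.7%, against 39.7%) and 24 lower (30.4%, against 14.8%). The genotype medians were -0.0618 with vehicle and -0.37 with PF (with 0.18 and 0.15 for all genes), and Sdha with vehicle turned to 0.15. With the GC and length trend removed there were 2 higher for PF in WT, 1 higher and 35 lower for the genotypes with PF, and medians of 0.0753 for the interaction, -0.0880 with vehicle and -0.19 with PF. That fit turned values with vehicle for Atp5g1 (0.00492), Atp5mpl (-0.14), Cox7b (-0.14), Cox8a (0.12), Ndufs1 (-0.0862), Ndufs4 (-0.48), Uqcr10 (0.29) and Uqcrb (-0.0935), for Ndufa4 with PF in WT (-0.0394) and for Ndufs1 between genotypes with PF (-0.23). The cause was not tested. DESeq2's test called 14 higher and 1 lower for PF in WT and 1 higher for the interaction. The fit to the 6 libraries of PF in WT called 1 higher (1.27%, against 2.01% of all tested genes). A fold change past 0.8 left 1 for PF in WT, 0 higher and 1 lower with vehicle, and 4 lower with PF.

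The labels carry no replicate numbers, and same-numbered columns did not deviate together in every pair (r from -0.18 to 0.32), so the numbers were not taken as pairs. A replicate block by column number called 11 higher and 2 lower for PF in WT.

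Leaving out 1 library at a time gave 0 to 21 higher and 0 to 2 lower members for PF in WT, 0 to 6 higher for the interaction, 4 to 9 higher and 30 to 46 lower for the genotypes with vehicle, and 57 to 64 lower with PF. The fewest higher with vehicle were 4 without AMPKβ1-/- library 2 and 5 without WT library 1. Medians ranged from 0.03 to 0.22, 0.16 to 0.30, -0.40 (without WT library 3) to -0.18, and -0.56 to -0.48 in that order. Over all tested genes, the share called higher for PF in WT ran from 1.18% to 14.9% in these fits. With union exon length in place of 1 transcript, the median level of members was 45.4 CPM per kilobase, and 24 of 29 levels checked moved by more than 1 SD.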
